A study of Mus musculus with 7 samples.

Results

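Primary B cells of wild type C57BL/6 mice that had been given BAFF for 8 h were compared with unstimulated B cells taken at 0 h. This comparison used 2 of the 7 RNA sequencing libraries of the series, 1 per condition, and was made over the 9954 genes that were assembled in both libraries and reached 1 FPKM in at least 1 of them. The other 5 libraries came from B cells given BAFF for 30 h, anti-IgM for 8 h or 30 h, or both agents for 8 h or 30 h, and serve here only to place the values. All 7 libraries share the genetic background and no allele was altered, and the labels do not say how the B cells were purified or how many mice they came from. No library was cultured without an agent, so BAFF and 8 h in culture cannot be told apart. With 1 library in each condition there is no estimate of the spread between samples, no test was made, and every error given covers counting error only.

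BAFF (B cell activating factor, encoded by Tnfsf13b) is a ligand of the TNF family that mature B cells need in order to survive outside the marrow. It binds BAFF-R, TACI and BCMA. Through BAFF-R it releases the kinase NIK (Map3k14) from degradation by the TRAF3 complex, NIK leads to the processing of the Nfkb2 product p100 to p52, and p52 enters the nucleus with RelB. This noncanonical branch of NF-kappaB acts beside the canonical one, in which p50 with RelA or c-Rel is freed from IkappaB proteins. BAFF is also known to engage PI3K and mTOR signalling and to support the metabolic fitness of resting B cells, and it keeps B cells alive without by itself driving much division.

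The libraries held about 18800000 mapped reads with BAFF and 21900000 unstimulated, as recovered from the deposited values. Transcripts of 300 bases or more gave names to 10381 genes with BAFF and 10679 genes unstimulated. The level of a gene is its FPKM, the fragments per kilobase of transcript, scaled to the mapped reads, summed over those transcripts. Differences are of log2(FPKM + 1), BAFF minus unstimulated, and understate the change of low genes. A gene was counted as different when this difference was at least 1, a 2-fold change, and the counting bounds of the 2 values were apart. A counted gene is called held if reads lying over its RefSeq exons, from either strand, also differed by at least 1 in the same direction. These reads were calculated back from the same FPKM values, so the second measure is not independent, and mainly removes genes that were assembled differently in the 2 libraries.

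With BAFF 617 genes (6.2% of those compared) were counted higher and 464 (4.66%) lower, 10.9% in either direction. Of these, 176 (1.77%) and 195 (1.96%) were held, 3.73% in either direction, that is 28.5% of the genes counted higher and 42.0% of those counted lower. The median difference of all genes was 0.12, so that the BAFF library as a whole lay slightly above 0, and the values of gene groups below are to be read beside that shift. Of the counted genes 57.1% were higher. When the BAFF library was scaled by the median ratio of well expressed genes this share was 44.3%, with 465 genes higher and 585 lower, and scaled by the upper quartile it was 46.7%. Which direction held more genes therefore depends on the scaling.

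**Figure D1:**
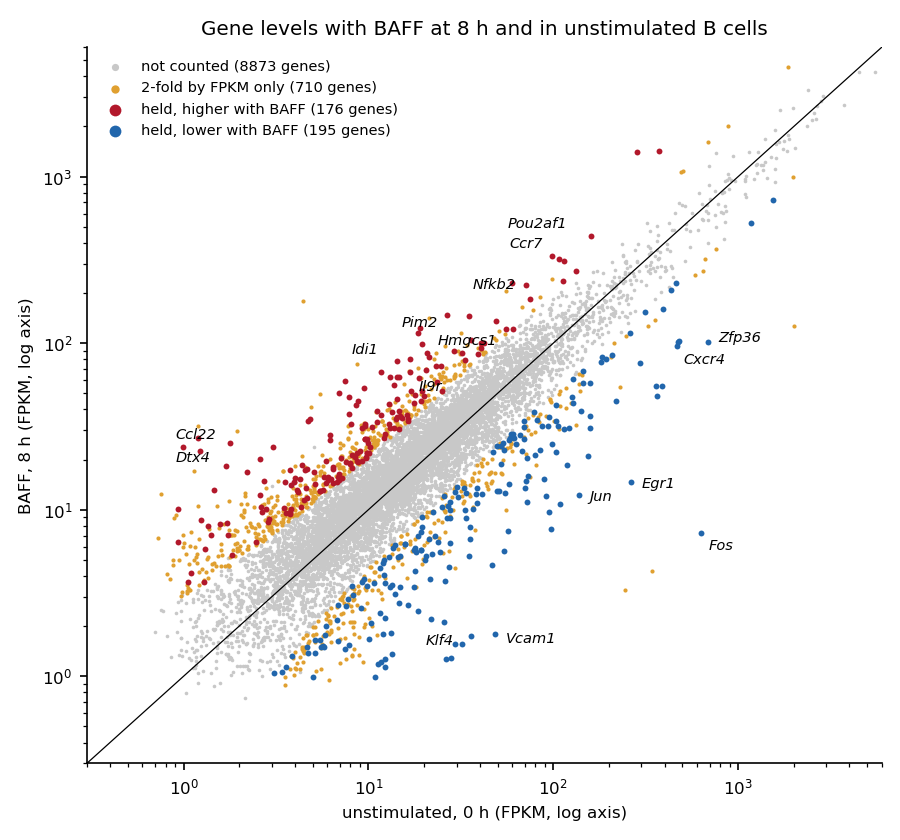
FPKM of the 9954 genes compared, with BAFF at 8 h on the vertical axis and unstimulated at 0 h on the horizontal axis, both on log axes, 1 point a gene, with the line of equal values. Red points are the 176 genes held higher, blue points the 195 held lower, and orange points those counted by FPKM alone; Fos, Egr1, Jun and Vcam1 lie far below the line, and Ccl22 and Dtx4 far above it.

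Among the genes held, without a close neighbour and at 5 FPKM or more, the largest differences downwards were mostly of early response genes and macrophage markers, and those upwards were of unlike kinds. Ccl22, which encodes a chemokine that draws cells with the receptor CCR4, had 25.04 FPKM with BAFF and 1.78 unstimulated (difference 3.23 ± 0.13, counting SE). Dtx4, an E3 ligase of the Deltex family, had 18.3 and 1.69 FPKM (2.84 ± 0.15). Chst10, a sulfotransferase of the HNK-1 sugar, had 50.3 FPKM with BAFF and 6.92 unstimulated. Itgb3, the integrin beta3 chain, had 35.2 and 4.86 FPKM, Ets2, a transcription factor, 47.6 and 7.81, and the growth factor receptor gene Igf1r 10.2 and 0.937. For Itgb3, 52.5% of the BAFF transcripts and 92.8% of the unstimulated ones lay on its own exons. Reads over exons differed by 1.89 for Itgb3 and 1.25 for Igf1r, against 2.63 and 2.53 in FPKM. Ppan, a ribosome assembly factor, had 148 FPKM with BAFF and 26.8 unstimulated, while its reads over exons differed by 1.03 against 2.42 in FPKM. Over transcripts of 500 bases or more Ppan differed by 0.76, and over the most abundant transcript alone Igf1r differed by 0.87, both under the limit.

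The other genes that the naming rule put among the 12 largest upwards were assembled differently in the 2 libraries, and their values are less certain. Trim30b had 27.0 FPKM with BAFF and 1.19 unstimulated, but 54.5% of the BAFF transcript and 2.79% of the unstimulated one lay on its own exons, in a family of related Trim30 genes. Zfp948 (22.6 and 1.23 FPKM) had 66.9% of its value from transcripts that also cover Zfp52. For Dhx40, an RNA helicase gene with 124 FPKM with BAFF and 19.1 unstimulated, 27.8% of the BAFF transcript lay on its own exons. Wnt10b (13.1 and 1.46) had 20.1% inside with BAFF and differed by 0.93 over transcripts of 500 bases or more, and Ppil3 (20.1 and 2.60) had 83.3% inside with BAFF and 0 in the unstimulated library. In the plot of both measures, genes such as Tyms, with 179 FPKM with BAFF and 4.42 unstimulated but an exon difference of 0.14, and Rps15a, with 126 and 2000 FPKM and an exon difference of -0.39, lie far from the diagonal and were not held.

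**Figure D2:**
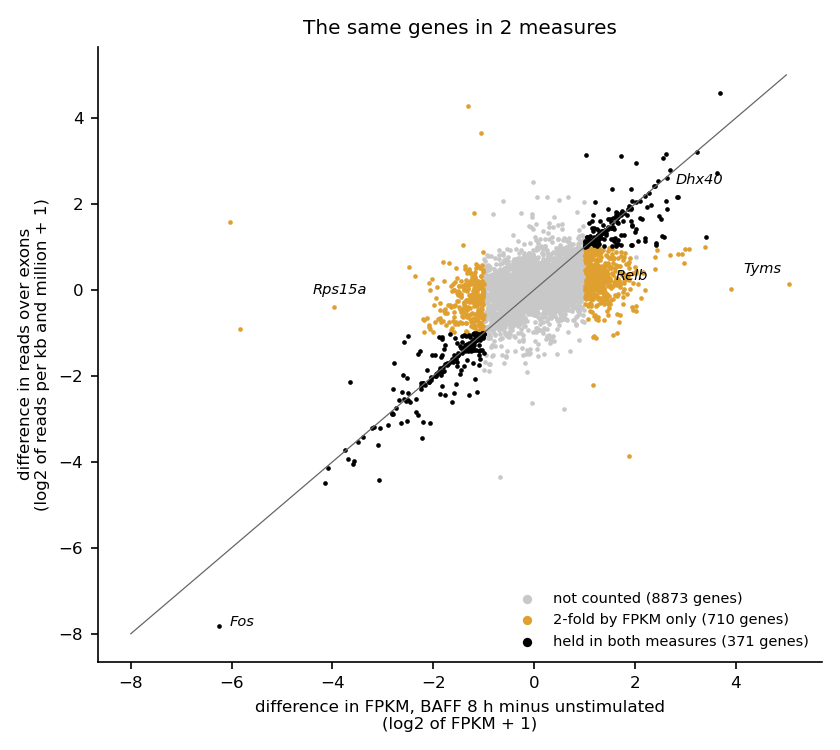
Difference in FPKM (horizontal, log2 of FPKM + 1, BAFF 8 h minus unstimulated) against the difference in reads over exons (vertical, log2 of reads over exons + 1, scaled to length and depth) for the 9954 genes compared, 1 point a gene, with the line of equal values. The 371 held genes (black) mostly lie near the line, and the 710 counted by FPKM alone (orange) spread away from it, with Tyms and Rps15a far out.

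Of the 5 NF-kappaB subunit genes Nfkb2, Relb and Rel were higher with BAFF, and in reads over exons only Nfkb2 and Rel passed the limit. Of the 5 subunit genes 3 were counted higher (60.0%, against 6.2% of all genes), 2 of them held, and the median difference was 1.11 against 0.12 for all genes. Nfkb2, on chromosome 19 of mm10, had 184 FPKM with BAFF and 75.3 unstimulated (1.28 ± 0.03). Relb, whose product pairs with p52, had 101 FPKM with BAFF and 41.1 unstimulated (1.28 ± 0.05), although its reads over exons differed by 0.82, so that it was not held. Rel, which encodes c-Rel, had 85.6 FPKM with BAFF and 39.2 unstimulated (1.11 ± 0.02). Only 34.3% and 34.5% of its transcripts lay on its RefSeq exons, a share that was alike in the 2 libraries, and scaling by the median ratio put its difference at 0.98, just under the limit. Nfkb1, the gene of p105 and p50, had 113 and 81.6 FPKM (0.46 ± 0.02), and Rela 57.9 and 47.3 FPKM (0.29 ± 0.04), and neither was counted.

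The promoters of the subunit and inhibitor genes were read in the RefSeq windows, which run from 250 bases before to 50 after an annotated start on GRCm38.p6, because NF-kappaB is known to act on its own genes. The kappaB motif searched was GGGA, any base, TT, any base and CC, on either strand. A window was found in the table for 8083 of the 9954 genes, by symbol. Of the 5 subunit genes 3 had a window, and those without one could not be searched. The motif was found for 2 of these 3, Nfkb2 and Rel, which were also the held subunit genes. It was found for 5 of the 8 compared inhibitor and cofactor genes with a window (62.5%). By comparison it was found for 2.0% of the genes counted higher (10 of 500 with a window), 0.829% of those counted lower (3 of 362) and 1.58% of all compared genes (128 of 8083). A match shows only that the letters are present. The 4 stretches of 120 bases below end just before the annotated start, read 5′ to 3′ on the strand of the gene, with the matching letters in capitals. They are Nfkb2 at chr19:46304617-46304736 (plus strand, the farthest upstream of its annotated starts with a match), Rel at chr11:23770970-23771089 (minus), Nfkbia at chr12:55492648-55492767 (minus) and Tnip1 at chr11:54962941-54963060 (minus).
Nfkb2: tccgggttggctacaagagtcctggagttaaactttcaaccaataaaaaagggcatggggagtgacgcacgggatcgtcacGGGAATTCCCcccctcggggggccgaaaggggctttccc
Rel: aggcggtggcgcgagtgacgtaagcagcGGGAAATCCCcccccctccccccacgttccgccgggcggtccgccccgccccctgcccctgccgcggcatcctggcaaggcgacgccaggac
Nfkbia: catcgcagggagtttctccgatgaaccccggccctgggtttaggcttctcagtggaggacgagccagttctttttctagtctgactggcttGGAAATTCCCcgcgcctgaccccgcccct
Tnip1: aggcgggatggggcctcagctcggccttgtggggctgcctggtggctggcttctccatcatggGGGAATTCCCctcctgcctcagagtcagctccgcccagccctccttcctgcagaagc

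Of the 10 compared genes for inhibitors and cofactors of NF-kappaB, 2 were counted higher and 1 was held, with a median difference of 0.34. Bcl3, an IkappaB-like protein that binds p50 and p52 in the nucleus, had 58.3 FPKM with BAFF and 23.6 unstimulated (1.27 ± 0.06) and was held. Nfkbib, the gene of IkappaB beta, had 61.3 and 22.6 FPKM, with an exon difference of 0.63. Nfkbia, the gene of IkappaB alpha whose promoter is shown above, had 195 FPKM with BAFF and 112 unstimulated (0.80 ± 0.03), and Tnip1, a partner of the deubiquitinase A20, had 33.5 and 25.3 FPKM. Tnfaip3, which encodes A20, had 36.4 and 26.2 FPKM with a counting SE of 0.83 on its difference of 0.46. The values of these last 3 genes stayed under the 2-fold limit.

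None of the 8 compared receptor genes, those of BAFF included, was counted in either direction. Tnfrsf13c, which encodes BAFF-R, had 48.8 FPKM with BAFF and 83.8 unstimulated (-0.77 ± 0.04). Tnfrsf13b, which encodes TACI, had 76.6 and 123 FPKM (-0.68 ± 0.04), with under 20% of its transcripts on RefSeq exons in either library, and Tnfrsf17, which encodes BCMA, was assembled in neither library. Of the 16 kinase, TRAF and IAP genes 1 was counted higher and held (6.25%, against 6.2% of all genes counted higher and 1.77% held higher). It was Traf1, an adaptor of TNF receptors, with 52.0 FPKM with BAFF and 19.5 unstimulated (1.37 ± 0.07). Map3k14, the gene of NIK, had 27.6 and 22.3 FPKM (0.30 ± 0.05), and Traf3, its negative regulator, had 21.9 and 20.6 FPKM (0.08 ± 0.05).

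Of the 12 compared survival genes 1 was counted and held. Pim2, a kinase that sustains growth and survival, had 99.1 FPKM with BAFF and 19.5 unstimulated (2.28 ± 0.06). Bcl2l1, the gene of BCL-XL, had 13.9 and 3.01 FPKM, a difference of 1.90 that its counting SE of 0.61 and overlapping bounds kept out of the count, and its reads over exons differed by 1.85. Mcl1, a BCL2 family gene known to be needed by B cells, had 171 FPKM with BAFF and 255 unstimulated (-0.57 ± 0.02), and Bcl2 had 14.8 and 29.6 FPKM (-0.95 ± 0.05). Neither was counted. Among 15 death genes, Bcl2l11, which encodes BIM, was higher (21.9 and 9.81 FPKM) and Pmaip1, which encodes NOXA, was lower (14.97 and 71.4 FPKM), both held. Scaled by the median ratio, Bcl2l11 differed by 0.96 and was no longer counted. The counted shares, 8.33% higher for survival genes and 6.67% in each direction for death genes, were near the 6.2% higher and 4.66% lower of all genes.

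**Figure D3:**
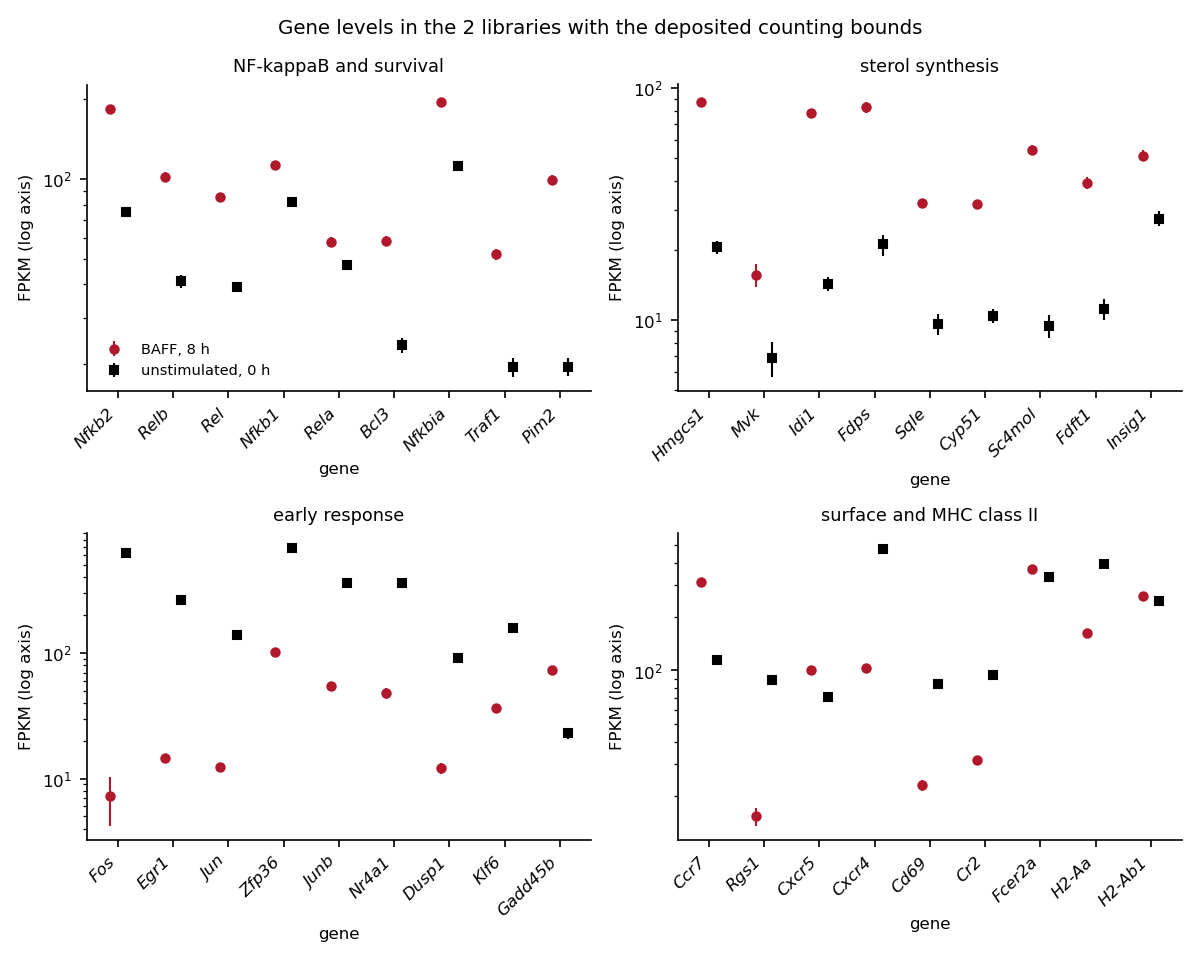
FPKM (vertical, log axes that differ between panels) of 9 genes in each of 4 groups, with BAFF at 8 h (red circles, left) beside unstimulated at 0 h (black squares, right). Bars are 2 standard deviations of counting error either way, combined over the transcripts of a gene from their deposited bounds. All 9 sterol synthesis genes lie higher with BAFF, and 8 of the 9 early response genes lie lower.

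The genes of sterol synthesis stood higher with BAFF as a group. Cells make cholesterol from acetyl-CoA through mevalonate, isoprenoids and squalene, under the control of SREBP2, which is released when sterols are low. Of the 28 compared genes 12 were counted higher (42.9%, against 6.2% of all genes), all 12 were held, none was counted lower, and 26 of 28 lay above 0, against 60.4% of all genes. The median difference was 0.85 against 0.12 for all genes. The first committed steps were among them: Hmgcs1, HMG-CoA synthase, had 87.2 FPKM with BAFF and 20.7 unstimulated (2.02 ± 0.05). Mvk, mevalonate kinase, had 15.7 and 6.86 FPKM (1.08 ± 0.13), just over the limit.

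The steps from isoprenoids to cholesterol were higher too. Idi1, the isopentenyl diphosphate isomerase, had 78.4 FPKM with BAFF and 14.3 unstimulated (2.37 ± 0.05), and Fdps, farnesyl diphosphate synthase, 82.7 and 21.2 FPKM (1.92 ± 0.08). Sc4mol, the sterol C4-methyl oxidase, had 54.0 and 9.45 FPKM (2.40 ± 0.08). Fdft1, squalene synthase, had 39.1 and 11.2 FPKM, Sqle, squalene epoxidase, 31.9 and 9.63, Lss, lanosterol synthase, 17.3 and 4.56, and Cyp51, lanosterol demethylase, 31.6 and 10.4. Stard4, a cholesterol carrier, had 16.3 FPKM with BAFF and 6.90 unstimulated. The control genes themselves differed little. Srebf2 had 107 and 88.9 FPKM (0.27 ± 0.02), Srebf1 20.5 and 18.01 FPKM (0.17 ± 0.04) and Scap 23.5 and 17.9 FPKM (0.38 ± 0.05), and Insig1, a feedback inhibitor and known SREBP target, had 51.2 and 27.4 FPKM (0.88 ± 0.06). In the fatty acid list 3 of 19 genes were counted higher (15.8%, against 6.2% of all genes) and 1 was held (5.26%, against 1.77%). The held gene was Fasn, fatty acid synthase, with 62.9 FPKM with BAFF and 13.0 unstimulated (2.19 in FPKM, 1.20 in reads over exons).

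A sterol element (TCACNCCAC, either strand) was found in the promoter window of 1 of the 21 compared sterol genes that have one, Hmgcs1, against 1.398% of all compared genes. The RefSeq table held a window for 6 of the 12 held sterol genes. The 120 bases shown lie at chr13:119690204-119690323 (plus strand, GRCm38.p6), with the element in capitals.
Hmgcs1: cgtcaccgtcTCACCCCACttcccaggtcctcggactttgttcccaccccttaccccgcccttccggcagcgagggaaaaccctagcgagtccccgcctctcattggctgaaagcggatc

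Genes that supply amino acids and one-carbon units were higher with BAFF. Of 22 compared, 7 were counted higher (31.8%, against 6.2% of all genes), all 7 held (1.77% of all genes), none lower, with a median of 0.58. Shmt2, the mitochondrial serine hydroxymethyltransferase, had 72.8 FPKM with BAFF and 24.7 unstimulated (1.52 ± 0.05), and Mthfd2, the next enzyme of the mitochondrial folate path, 26.5 and 9.86 (1.34 ± 0.08). Psat1, an enzyme of serine synthesis, had 20.5 and 9.67 FPKM, and Aldh18a1, the entry to proline synthesis, 19.5 and 8.73. Got1, aspartate aminotransferase, had 31.0 and 13.8 FPKM. The differences of Psat1 (1.01), Aldh18a1 (1.07) and Got1 (1.11) lay close to the limit. The polyamine genes Odc1, ornithine decarboxylase, and Srm, spermidine synthase, had 93.8 and 44.95 FPKM with BAFF, against 40.8 and 19.2 unstimulated. Asns, asparagine synthetase, was assembled with BAFF (11.0 FPKM) and not in the unstimulated library. Slc7a5, the large neutral amino acid transporter, had 30.8 FPKM with BAFF and 9.25 unstimulated (1.63 ± 0.07). It was the 1 gene held of 13 transporters (7.69%, against 1.77% of all genes held higher).

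The aminoacyl-tRNA synthetases, which charge tRNAs, were higher too. Of 31, 8 were counted higher (25.8%, against 6.2% of all genes), 6 of them held (1.77% of all genes), and Lars2 was counted lower but not held. The median was 0.39. Yars (66.8 FPKM with BAFF, 11.8 unstimulated), Tars (62.3 and 14.3) and Aars (62.8 and 14.7) were the largest, with reads over exons that differed by 1.09, 1.14 and 1.42 against 2.41, 2.05 and 2.03 in FPKM. In Aars 33% of the value came from transcripts shared with Exosc6. Cars had 38.9 and 14.6 FPKM, Iars 43.9 and 17.7 and Mars 51.5 and 24.9. The difference of Mars (1.02) lay just over the limit.

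An amino acid response motif (TGATGNAA, either strand), the core of elements bound by ATF4, was found for 5.2% of the genes counted higher (26 of 500 with a window), 3.59% of those counted lower (13 of 362) and 2.68% of all compared genes. Among the genes held higher it was found for 12 of 142 windows (8.45%), and among those held lower for 7 of 151 (4.64%). The 12 include Aars, Iars, Tars, Yars and Got1. They also include genes of other kinds, namely Idi1, Il12b, Plscr1, Pus7, Spata13, Traf1 and Gm14446. In all 32851 windows of the table the share was 3.97%. The stretch of the Asns promoter at chr6:7693210-7693329 (minus strand, GRCm38.p6) carries the motif in capitals.
Asns: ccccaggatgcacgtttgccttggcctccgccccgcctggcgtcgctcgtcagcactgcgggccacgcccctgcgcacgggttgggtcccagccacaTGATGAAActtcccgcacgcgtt

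Ribosome biogenesis factors were shifted upwards by small amounts in nearly every member. Of 48 compared, 44 lay above 0 (91.7%, against 60.4% of all genes), 8 were counted higher (16.7%, against 6.2%), 6 held and none lower, with a median of 0.61. Heatr1, a factor of pre-rRNA transcription and processing, had 35.6 FPKM with BAFF and 15.2 unstimulated (1.17 ± 0.04). Polr1b, the second largest subunit of RNA polymerase I, had 19.1 and 7.97 FPKM (1.16 ± 0.07). Utp20, Nop2 and Wdr12 had 14.5, 34.1 and 21.9 FPKM with BAFF, against 6.402, 16.3 and 10.1 unstimulated. The differences of Nop2 (1.02) and Wdr12 (1.05) lay just over the limit. Npm1, the abundant nucleolar chaperone, had 673 and 497 FPKM (0.44 ± 0.02), and Fbl, the rRNA methylase fibrillarin, 53.3 and 79.8 FPKM (-0.57 ± 0.04). An E-box (CACGTG, its own reverse complement), which MYC is known to bind, was found for 9 of the 43 compared genes with a window (20.9%), against 12.6% of all compared genes. The share was 31.25% (10 of 32) in the early response list, whose median was lower with BAFF. It was 13.0% of the genes counted higher and 13.8% of those counted lower, so the motif did not go with 1 direction.

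Other growth machinery had few counted genes. The proteasome list had a median of 0.46, with 29 of 34 genes above 0 and 2 counted higher (5.88%, against 6.2% of all genes). These were Psmd11 at 61.7 and 24.7 FPKM and Psmd12 at 37.1 and 16.2 FPKM, and only Psmd12 was held. Translation factors had a median of 0.40, glycolysis 0.37, nucleotide synthesis 0.36 and oxidative phosphorylation 0.21. Of 57 oxidative phosphorylation genes 3 were counted higher (5.26%, against 6.2% of all genes) and all 3 were held, with Ndufb8 at 55.9 FPKM with BAFF and 13.8 unstimulated, Atp5g2 at 229 and 59.6 and Ndufs3 at 90.3 and 29.0. In these 3 genes under 50% of the unstimulated transcripts lay on their own exons. The translation factor gene Eif4a1 was held higher at 334 and 98.0 FPKM (1.76 ± 0.02), on transcripts shared with Cd68. The cytosolic ribosomal protein genes, many of which have pseudogene copies that can take their reads, had a median of -0.11 over 76 genes. Of these 5 were counted higher (6.58%, against 6.2% of all genes) and 4 lower (5.26%, against 4.66%). DNA replication genes (median 0.02) and mitosis genes (-0.10) had no held member. The chaperone list had a median of 0.34, but the inducible HSP70 genes Hspa1b (2.13 FPKM with BAFF, 25.7 unstimulated) and Hspa1a (3.86 and 21.5) were lower.

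Further lists held few counted genes. Of 28 endoplasmic reticulum folding genes, Dnajb9, a cochaperone of the unfolded protein response, was held lower at 12.5 FPKM with BAFF and 54.9 unstimulated. Held lower were thus 3.57% of that list, against 1.96% of all genes. Of 21 RNA decay genes 3 were counted lower (14.3%, against 4.66% of all genes) and 2 of them were held. These were Zfp36, at 102 and 690 FPKM, and Zfp36l1, of the same family, at 207 and 433 FPKM (-1.06 ± 0.02). Of 13 hypoxia genes Mif, a cytokine gene, was held higher (7.69%, against 1.77% of all genes) at 235 and 113 FPKM (1.05 ± 0.06). Of 21 p53 target genes Plk2, a polo-like kinase gene, and Pmaip1 were held lower (9.52%, against 1.96% of all genes). Plk2 had 5.26 and 35.1 FPKM. The mTOR and AKT list had a median of -0.01 over 22 genes and no held gene, and the 72 mitochondrial ribosomal protein genes had a median of 0.31 and no held gene.

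**Figure D4:**
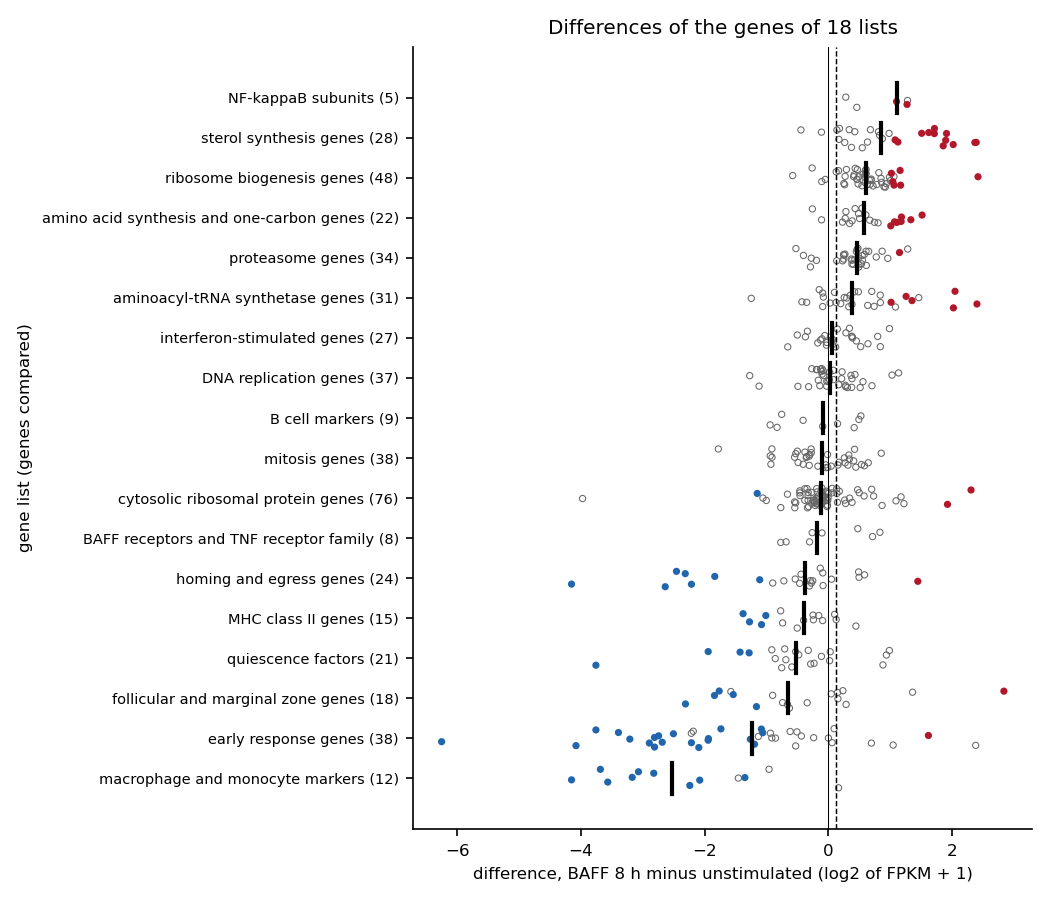
Differences (log2 of FPKM + 1, BAFF 8 h minus unstimulated) of the genes of 18 lists, 1 point a gene, with the list's median as a black bar, the median of all genes (0.12) as a dashed line and 0 as a thin line. Filled points are held genes, red higher and blue lower with BAFF; the sterol list has 12 red points and no blue one, and the early response list 20 blue points and 1 red one.

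Early response genes encode factors that cells induce within minutes of a stimulus. They had the lowest median difference of the 46 pathway lists. Of 38 compared, 23 were counted lower (60.5%, against 4.66% of all genes) and 20 of these were held, 3 were counted higher and 1 of these was held, and the median was -1.23. Fos, on chromosome 12 of mm10 at 85473901-85477270 (plus strand), had 7.22 FPKM with BAFF and 627 unstimulated (-6.26 ± 0.26), the largest difference among the held genes. Its partner Jun had 12.3 and 139 FPKM (-3.39 ± 0.05) and Junb 55.0 and 359 (-2.69 ± 0.04). Fosb had no transcript with BAFF and 86.1 FPKM in the unstimulated library. The AP-1 genes thus shared a high level at 0 h.

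The zinc finger and nuclear receptor genes of this list followed. Egr1 had 14.7 FPKM with BAFF and 264 unstimulated (-4.08 ± 0.05), Egr2 5.597 and 24.4 (-1.94 ± 0.08), and Nr4a1, a nuclear receptor induced by antigen receptor signals, 48.0 and 363 (-2.89 ± 0.08). The feedback genes were lower as well: Dusp1, a MAP kinase phosphatase, had 12.1 and 91.2 FPKM (-2.81 ± 0.07), Zfp36, which encodes the mRNA decay factor TTP, 102 and 690.5 (-2.74 ± 0.03), and Ppp1r15a, a phosphatase subunit of the stress response, 21.2 and 154 (-2.81 ± 0.06). Gadd45b, a stress gene known as an NF-kappaB target, was the member held higher, with 73.3 FPKM with BAFF and 23.1 unstimulated (1.62 ± 0.08). Dusp5 (33.8 and 15.8 FPKM) and Nfil3 (10.5 and 1.19) were counted higher but not held. Myc, the growth regulator, was counted lower at 64.7 and 143 FPKM (-1.13 ± 0.05) with an exon difference of -0.70, and was not held.

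The palindromic cyclic AMP element TGACGTCA was found for 4 of the 32 compared early response genes with a window (12.5%), against 3.81% of all compared genes. A serum response motif was also searched as 1 exact string, which only 2 of the 8083 compared genes with a window hold (0.0247%), none of them among the 32. The cyclic AMP matches were in Dusp1, Btg2, Ppp1r15a and Maff, of which Dusp1 and Ppp1r15a were held. The stretch of the Dusp1 promoter at chr17:26508506-26508625 (minus strand, GRCm38.p6) is shown with the element in capitals.
Dusp1: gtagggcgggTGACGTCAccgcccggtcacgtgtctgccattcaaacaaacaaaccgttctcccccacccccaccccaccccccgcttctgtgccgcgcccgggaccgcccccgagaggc

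Quiescence factors were lower. Of 21 compared, 4 were counted lower and held (19.0%, against 4.66% of all genes counted lower and 1.96% held lower), none higher, and the median was -0.53. Klf2, which restrains division and controls trafficking of lymphocytes, had 58.0 FPKM with BAFF and 158 unstimulated (-1.43 ± 0.04), Klf4, a related factor, 1.74 and 36.1 (-3.76 ± 0.11). Tsc22d3, the glucocorticoid-induced leucine zipper, had 75.5 and 293 FPKM (-1.94 ± 0.04) and Cdkn2d, an inhibitor of CDK4 and CDK6, 10.6 and 27.1 (-1.28 ± 0.11). The FOXO genes were within 2-fold, Foxo1 at 50.5 and 63.4 FPKM. The D-type cyclins, which open G1, were within 2-fold too, with Ccnd2 at 24.9 and 18.1 FPKM (0.44 ± 0.04) and Ccnd3 at 23.03 and 32.9 FPKM (-0.50 ± 0.08).

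Among 24 compared homing and egress genes 7 were counted lower and held (29.2%, against 4.66% of all genes counted lower and 1.96% held lower) and 1 higher, with a median of -0.37. The gene held higher was Ccr7, the receptor for the T zone chemokines CCL19 and CCL21, with 313 FPKM with BAFF and 114 unstimulated (1.45 ± 0.02). Cxcr4, the receptor for CXCL12, had 103 and 479 FPKM (-2.21 ± 0.03), and Cd69, which holds cells in tissue by removing S1PR1 from the surface, 22.9 and 84.3 FPKM (-1.83 ± 0.06). The G protein regulators Rgs1 (15.4 and 88.7 FPKM) and Rgs2 (31.0 and 158 FPKM) and the sphingosine phosphate receptor S1pr3 (1.13 and 12.3 FPKM) were lower. The follicle homing receptor Cxcr5 (101 and 71.0 FPKM) and S1pr1 (60.7 and 83.9 FPKM) stayed within 2-fold. Itgb7, a gut homing integrin chain, had no transcript with BAFF and 55.5 FPKM unstimulated.

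Markers of macrophages and monocytes moved with these groups. Of the 24 symbols of that marker list, of which Adgre1 and Emr1 name the same gene, 12 were compared. Of these 10 were counted lower with BAFF (83.3%, against 4.66% of all genes), 9 of them held, and none higher, with a median of -2.53. A further 8, among them Csf1r, C1qa, Mrc1 and Cd163, had no transcript with BAFF and were assembled in the unstimulated library. The list summed to 106 FPKM with BAFF (12 markers assembled) and 560 FPKM unstimulated (20 assembled), and in the other 5 libraries to between 113 and 224 FPKM. C1qb and C1qc, subunits of complement C1q, had 1.56 and 1.57 FPKM with BAFF, against 31.9 and 29.5 unstimulated. Fcna, a ficolin gene, had 1.26 and 26.2 FPKM, Hmox1, heme oxygenase, 9.68 and 95.2, Slc40a1, the iron exporter, 4.67 and 46.6, and Vcam1, an adhesion molecule of red pulp macrophages and stroma, 1.79 and 48.6. Mpeg1, which B cells also express, had 39.2 and 34.8 FPKM. Vcam1 also stands in the homing list. The part of these cells in the lower early response, homing and class II values was not tested. In such bulk samples fewer cells of a type and less RNA per cell cannot be told apart.

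The 9 compared B cell markers had no counted gene in either direction and a median of -0.09. They summed to 6589 FPKM with BAFF and 6956 unstimulated, with Cd79b at 472 and 334 FPKM and Ms4a1, which encodes CD20, at 250 and 445. The labelled cell type thus had its defining genes at high levels in the 2 libraries. The erythroid list summed to 61.1 FPKM with BAFF and 229 unstimulated, with the beta-globin gene Beta-s held lower (45.1 and 218 FPKM), Car2, a carbonic anhydrase gene, held higher (13.01 and 5.50 FPKM) and a median of 0.08 over 3 genes. The T cell list summed to 26.7 and 28.2 FPKM. Of its 14 markers, Tcf7 was held higher (10.4 and 2.64 FPKM), Lck had 14.9 and 16.5 FPKM, 1 was assembled with BAFF only and 3 unstimulated only. Neutrophil markers were assembled in neither library.

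MHC class II genes were lower by modest amounts. Of 15 compared, 4 were counted lower and held (26.7%, against 4.66% of all genes counted lower and 1.96% held lower), none higher, with a median of -0.40. Ciita, the master regulator of class II transcription, had 35.8 FPKM with BAFF and 94.5 unstimulated (-1.38 ± 0.46), with a wide counting error. H2-Aa had 161 and 390 FPKM (-1.27 ± 0.01), with 11.1% and 12.2% of its transcripts on RefSeq exons, H2-Eb1 728 and 1539 (-1.08 ± 0.01) and H2-DMb2, a chain of the peptide loading factor, 230 and 463 (-1.01 ± 0.03). H2-Ab1, the beta chain that pairs with H2-Aa, had 262 and 243 FPKM (0.10 ± 0.01), and Cd74, the invariant chain, 4235 and 4505 FPKM (-0.09 ± 0.01). The values of H2-Aa and H2-Ab1 thus differed unequally. Most of the H2-Aa value lay off its RefSeq exons, so nothing is concluded about the balance of the chains. The macrophage markers, whose cells carry class II, had the sums given above, and their part in these values was not tested.

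Of the follicular and marginal zone genes 2 of 18 were counted higher (11.1%, against 6.2% of all genes; 1 held) and 6 lower (33.3%, against 4.66%; 5 held), with a median of -0.64. Cr2, which encodes CD21, had 31.8 FPKM with BAFF and 94.0 unstimulated (-1.54 ± 0.03), with 28% of its value in transcripts shared with Cr1l. The Notch targets Hes1 (20.4 and 71.8 FPKM, -1.76 ± 0.15) and Dtx1 (27.0 and 61.6 FPKM, -1.16 ± 0.04) were lower, while Dtx4, of the same Deltex family as Dtx1, was higher as given above. Notch2, the receptor needed for marginal zone B cells, had 50.2 and 40.9 FPKM, and Fcer2a, which encodes the follicular marker CD23, 370 and 333 FPKM (0.15 ± 0.02). Tm6sf1 (13.5 and 70.7 FPKM) and Asb2 (4.96 and 20.3 FPKM) were lower and held.

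Of the signalling genes of B cells 8.82% were counted lower, and of the lineage genes 8.0% each way, against 4.66% lower and 6.2% higher of all genes. Of 34 genes of B cell receptor signalling 3 were counted lower, 2 of them held, among these Ptprc, which encodes CD45, at 154 FPKM with BAFF and 314 unstimulated (-1.02 ± 0.01). Of 16 coreceptor genes 4 were counted lower, a larger share than the 4.66% of all genes, and 2 were held (12.5%, against 1.96%). The median of the coreceptor list was -0.63, against 0.12 for all genes. The held genes were Cd300a, an inhibitory receptor also found on myeloid cells, at 1.29 and 27.9 FPKM, and Fcrl1 at 34.8 and 81.8 FPKM. Among 25 lineage factors, Pou2af1, which encodes the B cell coactivator OBF1, had 441 FPKM with BAFF and 159 unstimulated (1.46 ± 0.02), and Id3, an inhibitor of E proteins, 99.6 and 42.1 (1.22 ± 0.07). Lmo2 was lower at 31.9 and 106 FPKM, with a counting SE of 0.94. None of 14 germinal centre and plasma cell genes was counted, with Bcl6 at 35.0 and 33.8 FPKM and Prdm1, which encodes BLIMP1, at 3.68 and 2.51.

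Of 32 cytokine receptor and JAK-STAT genes 6 were counted higher (18.8%, against 6.2% of all genes; 4 held) and 2 lower (6.25%, against 4.66%; none held), with a median of 0.13, close to that of all genes. Il9r, the IL-9 receptor chain, had 66.7 FPKM with BAFF and 16.8 unstimulated (1.93 ± 0.05), with 41.8% and 45.9% of its transcripts on RefSeq exons. Socs2, a feedback inhibitor of STAT signalling, had 8.19 and 1.58 FPKM (1.83 ± 0.15), Il6st, the shared receptor chain gp130, 10.4 and 4.32 (1.10 ± 0.06), and Il2ra, which encodes CD25, 14.6 and 6.73 (1.02 ± 0.19). Among 15 cytokine and chemokine genes, Ccl22 was held higher, and Il1b (10.1 FPKM with BAFF, 36.8 unstimulated) and Ccl3 (5.73 and 19.1 FPKM) were held lower. The shares were 6.67% held higher and 13.3% held lower, against 1.77% and 1.96% of all genes. Ltb, the lymphotoxin beta gene and a known target of the noncanonical pathway, had 396 and 236 FPKM (0.74 ± 0.03) and was not counted. No interferon-stimulated gene of 27 was counted, and their median was 0.07.

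Some genes were assembled in 1 of the libraries and so could not be compared, since a missing transcript is not a level of 0. At 5 FPKM or more 112 genes were assembled with BAFF only and 167 unstimulated only. Of these, 65 and 99 also differed at least 2-fold in reads over exons. Those reads are calculated from assembled pieces as well, so a missing transcript itself lowers them. The 65 and 99 are therefore no separate support for a difference in level. The reason for the others was not tested. With BAFF only the highest were Ppia (1725 FPKM), Lsp1 (315), H2-Q6 (264), Tpm3 (232) and Hnrnpa3 (136), but Lsp1, Tpm3 and Hnrnpa3 had nearly equal reads over exons in the 2 libraries. Nfkbie, the gene of IkappaB epsilon, was assembled at 79.7 FPKM with BAFF, with no piece over its exons in the unstimulated library. Unstimulated only, the highest were Usmg5 (132 FPKM), Fosb (86.1), Cbx3 (67.8), Polr2k (64.7) and Tmem179b (63.5).

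The other libraries place these values, and every comparison with the unstimulated library shares it. Sterol synthesis genes had median differences of 0.85 with BAFF at 8 h and 0.80 with BAFF at 30 h, 1.28 with anti-IgM and 1.58 with both agents at 8 h. Ribosome biogenesis genes had 0.61 and 0.39 with BAFF at 8 h and 30 h, 1.52 with anti-IgM and 1.56 with both at 8 h. For the early response list the medians were -1.23 with BAFF at 8 h, -1.47 with BAFF at 30 h, -1.10 with anti-IgM at 8 h and -1.09 with both at 8 h. Fos was at 3.69 FPKM with anti-IgM and 2.503 with both at 8 h, and at 1.63 with BAFF at 30 h, so that the unstimulated library was the only one of these with a high value.

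Single genes differed in which libraries shared the BAFF value. Hmgcs1 had 87.2 FPKM with BAFF, 128 with anti-IgM and 139 with both at 8 h, all far above the unstimulated 20.7. Bcl3 had 58.3 FPKM with BAFF at 8 h and between 24.05 and 31.7 FPKM in the other 5 stimulated libraries, beside 23.6 unstimulated. Pou2af1 had 441 and 298 FPKM with BAFF at 8 h and 30 h, 116 and 120 with anti-IgM, and 159 unstimulated. Il9r had 66.7 and 64.2 FPKM with BAFF at 8 h and 30 h, 7.06 and 8.404 with anti-IgM, and 16.8 unstimulated. Ccl22 had 103 FPKM with BAFF at 30 h, above its 25.04 FPKM at 8 h. Klf2 had 58.0 FPKM with BAFF at 8 h and 18.8 with anti-IgM, beside 158 unstimulated.

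**Figure D5:**
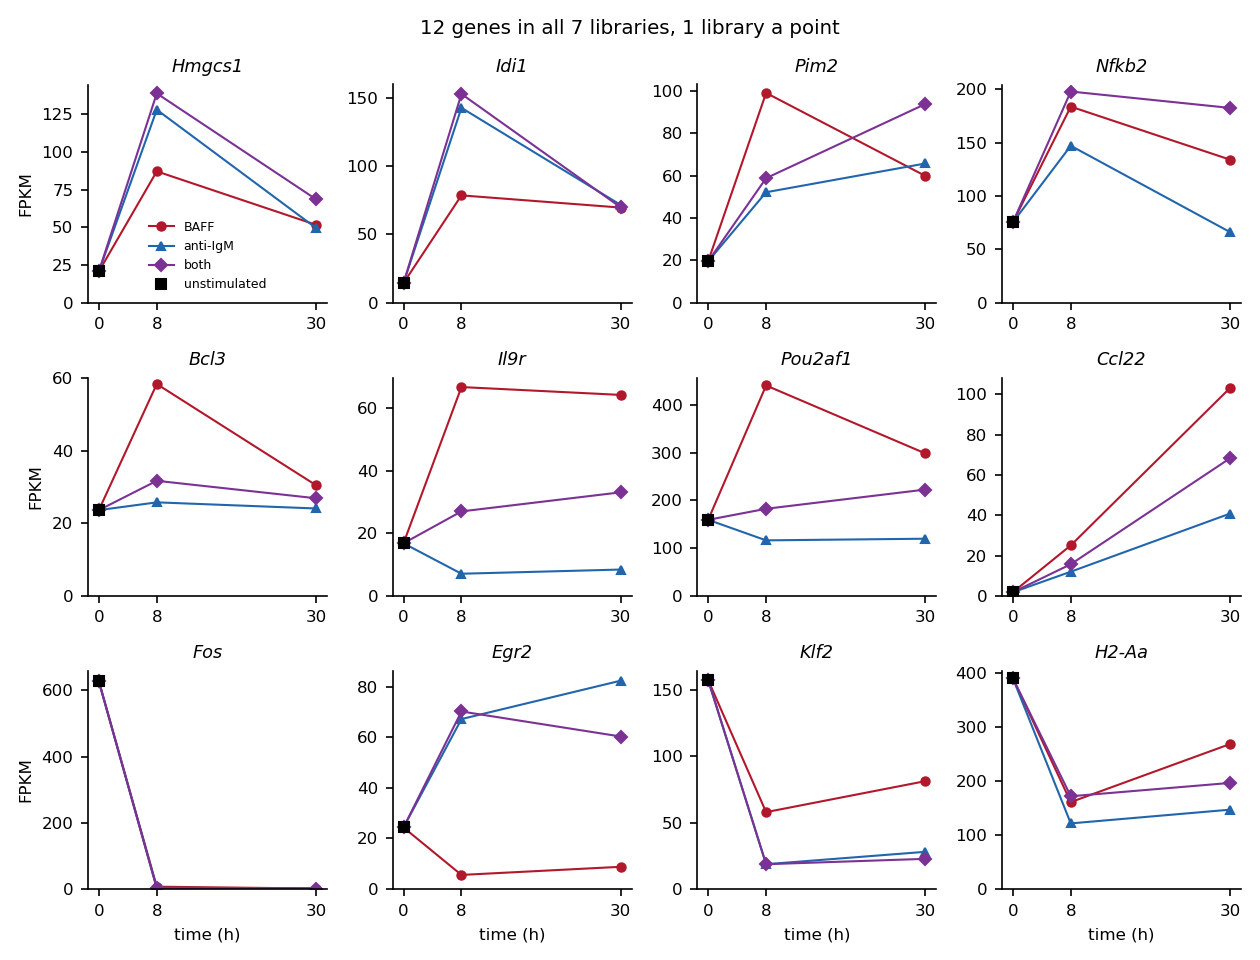
FPKM (vertical, linear axes from 0 that differ between panels) of 12 genes against time (horizontal, h) in all 7 libraries, 1 library a point and no replicates; the unstimulated library (black square) is the shared start of the lines for BAFF (red), anti-IgM (blue) and both (purple). Bcl3, Il9r and Pou2af1 are highest with BAFF at 8 h, Hmgcs1 and Idi1 are higher with every agent, and Egr2 is lower with BAFF and higher with anti-IgM.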

How the data were processed

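RNA of B cells was reverse transcribed from poly-dT primers and sequenced on Illumina libraries, 1 library per condition, per the labels' protocols. Per the submitters' processing notes the tools were CASAVA 1.8.2, TopHat2 2.0.5, Bowtie2 2.0.0.7, Cufflinks 2.0.2 and Cuffdiff, on mm10. The authors deposited, for each library, the FPKM of transcripts assembled in that library alone, with low and high bounds of 2 SDs of counting error, as other annotation fields of a transcript file, and a merged annotation with gene names and exon positions. Assembly in each library separately lets the same gene be cut or joined differently, which moves its FPKM.

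Each transcript was named by its overlap with the merged annotation, and FPKM was summed per gene over transcripts of 300 bases or more. The bounds of a gene were rebuilt from the deposited bounds of these transcripts by adding variances. Shorter pieces held 66.6% of the FPKM with BAFF and 67.7% unstimulated. Reads over RefSeq exons were calculated back from FPKM, length and recovered depth. Genes at 1 FPKM or more in 1 library and assembled in both were compared as log2(FPKM + 1), with a pseudocount of 1. No sample-level test is possible with 1 library per group, and depth limits only the counting error. Another gene of at least 1 FPKM within 1000 bases made a gene one with a neighbour (29.0% of those compared). The counting rule and the scaling were tested on simulated data. The genes named are the 12 largest held each way at 5 FPKM or more without a neighbour, leaving out immunoglobulin segments, small RNAs and genes with provisional names, then up to 4 counted genes per list, 25 genes fixed for their role, and up to 5 genes each way assembled in 1 library. Other list members in the text were chosen for their role after their values were seen. The members and lists were chosen with earlier results of these data known. Promoter sequences are from RefSeq, GRCm38.p6. Python 3.11.15, pandas 2.3.3 and bedtools 2.31.1 were used. Alternatives changed the pseudocount, minimum, scaling, transcript length, transcript choice, measure, neighbours, fold and bounds. Results for some genes are not reported here.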

Additional observations from a re-analysis of the deposited data

Results flagged for a closer look

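Egr2, a zinc finger factor induced by antigen receptor signals, was held in opposite directions in the comparisons of 2 agents at 8 h. Its difference was -1.94 with BAFF (5.597 FPKM) and 1.43 with anti-IgM (67.2 FPKM), against 24.4 FPKM in the unstimulated library that both comparisons share. Lsm2, an RNA processing factor gene, differed by -1.84 with BAFF (4.30 FPKM) and by 1.56 with anti-IgM (54.7 FPKM), against 17.9 FPKM unstimulated, on transcripts shared with Hspa1l. Of 371 genes held with BAFF at 8 h and 1450 with anti-IgM at 8 h these 2 were opposite, and none was opposite between BAFF at 8 h and BAFF at 30 h (347 held). Only genes held in both comparisons could be opposite, and their number is not given. The comparisons also share the unstimulated library, so these counts do not measure how alike the responses were. The difference between the agents was not tested.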

How the results depend on the processing

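With 1 library a condition, no replicate can be left out. No paired analysis was possible because each condition has 1 library and no replicate numbers. The counts of 617 genes higher and 464 lower became 272 and 255 with a pseudocount of 5, 248 and 277 in reads over exons, 1606 and 1039 at 1.5-fold, 151 and 142 at 3-fold, and 176 and 195 when reads over exons also had to differ 2-fold. Among well assembled genes, an alternative chosen after seeing the data, they were 465 and 354. Of 747 list medians under alternatives 45, in 19 lists, had the other sign. Among these were the interferon-stimulated (-0.03 by the median ratio), DNA replication, mitosis (0.0044 with 5 FPKM in 1 library), mTOR (0.10 in reads over exons), fatty acid (-0.02 without neighbours), erythroid (-1.27 in reads over exons) and BAFF receptor (0.19 in well assembled genes) lists. In all 6 medians moved beyond their interval, those of cytosolic ribosomal proteins (-0.24 scaled by the median ratio, -0.21 by the upper quartile), oxidative phosphorylation (0.078 and 0.11), DNA replication (-0.10 by the median ratio) and dendritic cell markers (-2.05 with genes not assembled set to 0). Scaled by the median ratio, 13 of the 138 counted named genes were no longer counted. Of the 138, 76 were counted the same way in all 9 alternatives and 13 changed sign in 1 or more. In reads over exons these were H2-M3 (-0.38), Fads1 (-0.13), Mrps15 (-0.36), Creld2 (0.10), Pole (0.39), Cdc45 (-0.032), Chaf1a (-0.21), Skp2 (-0.21) and Hnrnpd (0.17). Over transcripts of 500 bases or more they were Tnfsf10 (0.46), Mrps15 (-0.045) and Tyms (-0.065). With the most abundant transcript they were Mrpl10 (-0.41) and Cdt1 (0.47), and with all transcripts Tyms (-1.75). The cause was not tested. Depth limits low genes, whose counting bounds overlap.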

Other observations

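Several held genes outside the naming rule were chosen after their values were seen. Slc2a6, a sugar transporter gene, had 59.3 FPKM with BAFF and 7.43 unstimulated. Of the thioredoxin system, Txnrd1, the reductase, had 80.6 and 16.7 FPKM, and Txn1, thioredoxin, 222 and 71.5 FPKM. Fabp5, a fatty acid binding protein gene, had 44.9 and 8.75 FPKM, and the related factors Lef1 and Tcf7 had 14.9 and 10.4 FPKM with BAFF, against 2.73 and 2.64 unstimulated.

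Among the genes held lower, Cpt1a, which brings fatty acids into mitochondria, had 7.45 FPKM with BAFF and 56.7 unstimulated. Its reads over exons differed by -1.71 against -2.77 in FPKM. Tyrobp and Fcer1g, adaptor genes used by myeloid receptors, had 24.7 and 4.52 FPKM with BAFF, against 98.9 and 27.2 unstimulated. The macrophage marker list summed to 106 FPKM with BAFF and 560 unstimulated, and its part in these values was not tested.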
